A study of Mus musculus with 9 samples.

Results

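The keratin genes of the epidermis were followed in the mouse ear: 3 keratins of the basal layer (Krt5, Krt14 and Krt15) and 7 of the suprabasal layers (Krt1, Krt10, Krt2, Krt77, Krt78, Krt79 and Krt80). They were chosen by name from the 54838 genes of the count tables, and all 10 passed the filter on low counts. Ear RNA of C57BL/6 mice aged 10 weeks was read by 3' tag RNA-Seq, which counts fragments from the end of each transcript. There were 3 groups of 3 libraries, and every mouse had received 15 µg of minicircle DNA, a small DNA circle, through the tail vein. The groups were wild type with DNA for green fluorescent protein (GFP), wild type with DNA for interleukin 23 (IL-23), and Mdl-1-/- with DNA for IL-23. MDL-1 is a receptor of myeloid cells encoded by Clec5a, and the labels do not name the deleted part of the gene. No Mdl-1-/- group with GFP DNA was analysed here, so a genotype difference that was there before IL-23 cannot be told apart from one that arises under IL-23. Nothing in the labels says that a library stands for its own animal. The p-values therefore speak only for the spread among libraries, which may be technical.

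Keratins are the intermediate filament proteins of epithelial cells. Each filament pairs an acidic type I keratin with a basic type II keratin, and the pair changes as a cell leaves the basal layer: Krt14 with Krt5 below, Krt10 with Krt1 or Krt2 above. In mouse ear skin Krt2 is a prominent suprabasal type II keratin beside Krt1. Wounded or inflamed epidermis adds another set, Krt6a and Krt6b (type II) with Krt16 and Krt17 (type I). Psoriasis-like skin disease, which IL-23 can drive, is known for a thickened epidermis with disturbed differentiation.

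The 3 type I members lie on chromosome 11 and the 7 type II members on chromosome 15, all on the minus strand of GRCm38 (GENCODE annotation). Krt10 spans chr11:99385254-99389364, Krt15 chr11:100131758-100135928 and Krt14 chr11:100203162-100207548. On chromosome 15 the order is Krt80 (chr15:101347444-101370162), Krt5 (chr15:101707070-101712898), Krt2 (chr15:101810689-101818169), Krt1 (chr15:101845426-101850794), Krt77 (chr15:101858731-101869705), Krt79 (chr15:101929332-101940324) and Krt78 (chr15:101946001-101954287). Krt2, Krt1 and Krt77 are direct neighbours, with gaps of 27.3 and 7.9 kb and 0 coding genes between them. Antisense genes overlap Krt10 (Gm11940, 3 to 9 counts in a library) and Krt80 (Gm35853, 11 to 27 counts), and the strand setting of the authors' counting is not given in the sources used here. Of the 50-base windows in the last 500 bases of each longest transcript, 9 members shared 0 with other genes, and Krt14 shared 43 of 451 (9.53%) with Krt16 and Krt17. Krt14 values are therefore partly uncertain.

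The promoters below belong to the 3 keratins whose log2 difference between the genotypes under IL-23 was most positive. Of these only Krt10 was called, and Krt15 (1.556) lay just below Krt10 (1.561). The sequences are the 250 bases before the RefSeq start site on GRCm38.p6, minus strand, written in the direction of transcription. Capitals mark matches, on either strand, to a TATA box (TATANAA) and to a C/EBP motif (TTNNGNAA); N is any base. Krt10 is at chr11:99389365-99389614, Krt2 at chr15:101818170-101818419 and Krt77 at chr15:101869706-101869955.
Krt10: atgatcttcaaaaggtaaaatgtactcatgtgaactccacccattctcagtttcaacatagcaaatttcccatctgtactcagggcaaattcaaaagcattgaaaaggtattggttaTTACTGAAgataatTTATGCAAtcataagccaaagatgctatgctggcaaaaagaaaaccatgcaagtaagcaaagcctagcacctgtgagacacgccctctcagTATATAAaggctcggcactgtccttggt
Krt2: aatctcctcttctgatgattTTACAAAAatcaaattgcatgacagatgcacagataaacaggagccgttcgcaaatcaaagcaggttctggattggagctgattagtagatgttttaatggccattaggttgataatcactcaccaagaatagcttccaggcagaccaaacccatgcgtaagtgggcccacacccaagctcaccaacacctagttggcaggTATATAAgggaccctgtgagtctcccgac
Krt77: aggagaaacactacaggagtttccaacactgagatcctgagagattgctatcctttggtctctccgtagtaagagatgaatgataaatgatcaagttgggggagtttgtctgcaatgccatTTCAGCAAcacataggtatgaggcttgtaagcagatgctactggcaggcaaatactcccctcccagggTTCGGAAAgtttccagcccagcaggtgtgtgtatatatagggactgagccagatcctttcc
Krt10 and Krt2 hold the same TATA box, TATATAA, starting at -28 and -29 from the start site. The Krt77 window has no match to TATANAA. It does hold tatatata, left in lower case, near its start site, so a TATA-like stretch is not absent there. Krt10 and Krt77 each hold a pair of C/EBP matches, and Krt2 holds a single one. These motifs were found in 10.4% (TATANAA) and 36.8% (TTNNGNAA) of 32851 promoter windows of the same length. The AP-1 motif TGANTCA (6.75% of windows) and the STAT motif TTCNNNGAA (7.02%) had no match in the 3 windows. The Krüppel-like factor and Sp motif CCACCC (28.1% of windows), left in lower case, had 1 match in Krt10. Of the 10 members, 7 matched the RefSeq table, and Krt15, Krt1 and Krt80 did not.

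Together the 10 keratins took 1.57% ± 0.215 of all counts with GFP, 1.68% ± 0.244 in wild type with IL-23 and 2.67% ± 0.341 in Mdl-1-/- with IL-23 (SD, n = 3). The wild-type groups overlapped (difference 0.108 percentage points, exact permutation test, two-sided, p = 0.6). All Mdl-1-/- libraries, at 2.40% to 3.06%, lay above all wild-type libraries, the highest of which was 1.96% (exact permutation p = 0.1 against either group, the smallest that 3 libraries against 3 can give). Mitochondrial transcripts took 14.0% ± 1.31, 8.85% ± 0.153 and 12.2% ± 0.784 of counts in the same order (SD, n = 3). Without them in the denominator the keratin shares were 1.83%, 1.85% and 3.04%. Library totals ran from 3776188 to 5605713 counts. Clec5a itself had 2, 7 and 10 counts with GFP, 17, 21 and 11 in wild type with IL-23, and 10, 13 and 5 in Mdl-1-/-, and was not called between the genotypes (log2 difference -0.92, SE 0.47, edgeR adjusted p = 0.185). Since the deleted part is not named, these transcript-end counts do not check the genotype labels. In whole-ear RNA, fewer cells of a type and less RNA per cell cannot be told apart.

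**Figure D1:**
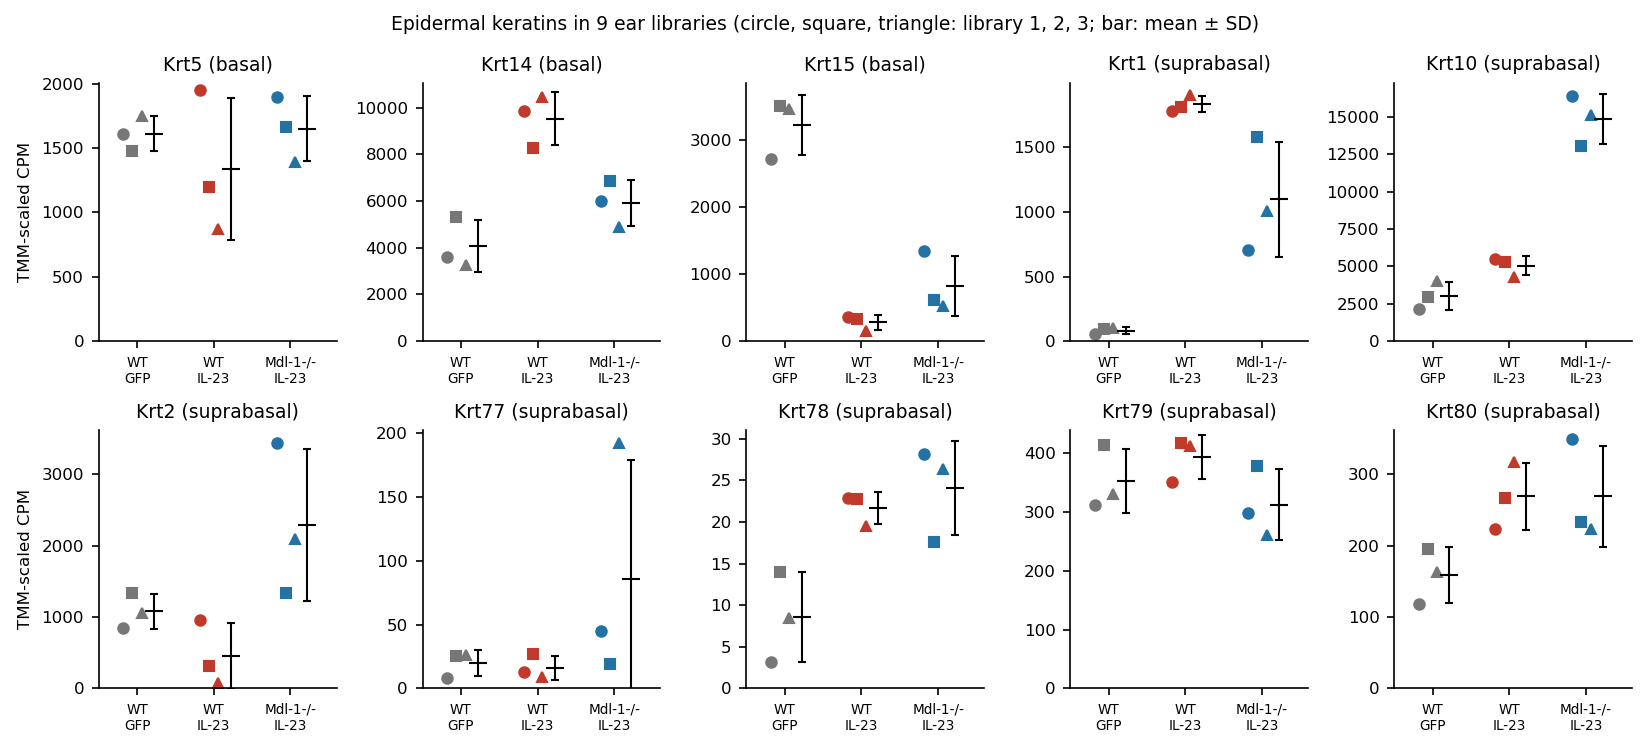
TMM-scaled CPM (linear axis from 0) of each of the 10 keratins in the 9 libraries, by group, with the mean ± SD of 3 libraries as a bar; bars of Krt2 and Krt77 that would pass below 0 are clipped there. Krt15 is high in the 3 GFP libraries, Krt14 and Krt1 in the 3 libraries of wild type with IL-23, Krt10 in the 3 Mdl-1-/- libraries.

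In wild-type ear with IL-23, Krt1, Krt14, Krt10, Krt78 and Krt80 rose and Krt15 fell against GFP. The changes ran from a 22.8-fold rise of Krt1 to an 11.5-fold fall of Krt15. Levels are TMM-scaled CPM, counts per 1000000 after a scaling that balances most genes between libraries, and a gene is called at an edgeR adjusted p under 0.05. Thus 6 of 10 keratins were called, beside 44.7% of all tested genes (22.9% higher, 21.7% lower), a share near the background. For the same 6 members the groups did not overlap, as for 54.6% of all tested genes. By layer, 1 of 3 basal keratins rose and 1 fell, and 4 of 7 suprabasal keratins rose and 0 fell. The median log2 fold change of the 10 was 0.45, beside -0.04 over all genes. Scaling by library totals alone lowered the latter by 0.40, and 22.7% rather than 51.3% of all calls were then higher; upper-quartile scaling gave 38.9%.

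Krt14, the type I keratin of basal cells, stood at 3602, 5329 and 3275 CPM in the GFP libraries, 9868, 8258 and 10466 CPM in wild type with IL-23, and 6008, 6839 and 4868 CPM in Mdl-1-/-. The wild-type IL-23 libraries were the highest and overlapped neither other group, while Mdl-1-/- and GFP libraries overlapped. The rise of Krt14 with IL-23 in wild type was 2.34-fold (log2 fold change 1.23, SE 0.18, edgeR adjusted p = 0.000102). Krt16 and Krt17, which share transcript-end sequence with Krt14, had mean levels of 11.3 and 31.5 CPM with GFP, 1591 and 404 CPM in wild type with IL-23, and 408 and 126 CPM in Mdl-1-/-; their part in the Krt14 result was not tested.

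Its type II partner Krt5 was not called. It stood at 1609, 1479 and 1749 CPM with GFP, 1949, 1201 and 869 CPM in wild type with IL-23, and 1894, 1666 and 1391 CPM in Mdl-1-/-. The 3 groups overlapped, and the wild-type IL-23 libraries held both the highest and the lowest value. The log2 difference between wild-type IL-23 and GFP was -0.27 (95% interval -0.80 to 0.26, edgeR adjusted p = 0.393). Without wild-type IL-23 library 1 it was -0.63 (adjusted p = 0.0082), so that 1 library decides this call.

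Krt15 had the largest fall among the members. Krt15 is a type I keratin of quiet basal cells and of the hair follicle bulge, where follicle stem cells reside. It stood at 2710, 3508 and 3457 CPM with GFP, 363, 326 and 150 CPM in wild type with IL-23, and 1341, 608 and 520 CPM in Mdl-1-/-. The 3 groups did not overlap: GFP was high, wild-type IL-23 low, and Mdl-1-/- between them. The fall in wild type was 11.5-fold (log2 fold change -3.53, SE 0.49, edgeR adjusted p = 0.00114) and was called in all 20 alternatives. Markers of the bulge moved with it: 8 of 9 fell and 1, the companion layer keratin Krt75, rose, and their summed level was 1222 to 1415 CPM with GFP and 518 to 716 CPM in wild type with IL-23. Of 10 other basal layer markers, such as integrins and laminins, 5 fell and 1 rose, with sums of 2364 to 2457 and 1012 to 1544 CPM. Of all tested genes 21.7% fell and 22.9% rose. Their part in the Krt15 result was not tested.

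Among the suprabasal keratins, Krt1 changed most. Krt1, the type II partner of Krt10 in spinous cells, stood at 51.5, 90.7 and 99.3 CPM with GFP, 1783, 1815 and 1906 CPM in wild type with IL-23, and 702, 1583 and 1005 CPM in Mdl-1-/-. The GFP libraries were lowest and the wild-type IL-23 libraries highest, with no overlap between any groups. The 22.8-fold rise of Krt1 in wild type had a log2 fold change of 4.51 (SE 0.35, edgeR adjusted p = 1.57e-05). The spread of Krt1 among the wild-type IL-23 libraries was the smallest of any member in any group, with a coefficient of variation of 3.49%.

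Krt10, the type I keratin of the same cells, had a smaller rise in wild type. It stood at 2153, 2921 and 4005 CPM with GFP, 5528, 5278 and 4312 CPM in wild type with IL-23, and 16418, 13081 and 15124 CPM in Mdl-1-/-. The groups did not overlap and the Mdl-1-/- libraries were the highest. The rise in wild type was 1.67-fold (log2 fold change 0.74, SE 0.19, edgeR adjusted p = 0.00648). With library totals alone as scaling it was 0.34 on the log2 scale (adjusted p = 0.208).

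Krt2, a late suprabasal type II keratin, differed widely between libraries of 1 group. It stood at 841, 1340 and 1053 CPM with GFP, 963, 308 and 68.4 CPM in wild type with IL-23, and 3444, 1342 and 2089 CPM in Mdl-1-/-. The wild-type IL-23 libraries spanned 14.1-fold, from 4204 to 207 counts, and the highest of them lay within the GFP range. The log2 difference of wild-type IL-23 from GFP was -1.27 (95% interval -3.40 to 0.86, edgeR adjusted p = 0.289), and it was -2.50 (adjusted p = 0.0527) without wild-type IL-23 library 1 and -0.75 (adjusted p = 0.397) without library 3. With limma voom Krt2 was called lower (-1.91, adjusted p = 0.0222). Library 1, the highest in Krt2, was also the highest of its group in Krt5 and Krt15, and library 3 was the lowest in all 3 genes. In Mdl-1-/-, library 1 was likewise the highest in Krt2, Krt5 and Krt15, and library 3 was the lowest in Krt5 and Krt15 but not in Krt2.

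Krt77, a type II keratin of suprabasal cells and gland ducts, had 27 to 803 counts in a library. It stood at 7.83, 25.7 and 26.0 CPM with GFP, 12.8, 26.7 and 8.93 CPM in wild type with IL-23, and 44.7, 19.0 and 192 CPM in Mdl-1-/-. All groups overlapped, and Mdl-1-/- library 3 was above the other 8 libraries. Between the wild-type groups the log2 difference was -0.26 (95% interval -2.73 to 2.21, edgeR adjusted p = 0.858).

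The remaining 3 members are also type II keratins. Krt78, a suprabasal keratin at 3.13 to 14.0 CPM with GFP, stood at 19.5 to 22.9 CPM in wild type with IL-23 and 17.6 to 28.2 CPM in Mdl-1-/-. Its rise in wild type was 2.56-fold, or 1.36 on the log2 scale (SE 0.38, edgeR adjusted p = 0.0133). The Krt78 call was lost with library totals alone (adjusted p = 0.0579) and without GFP library 3 (0.0507). Krt80, a keratin found in many differentiating epithelia, stood at 118 to 195 CPM with GFP, 223 to 318 CPM in wild type with IL-23 and 223 to 350 CPM in Mdl-1-/-. Its rise in wild type was 1.69-fold, or 0.76 on the log2 scale (SE 0.21, edgeR adjusted p = 0.00999), and was not called with library totals alone (0.35, adjusted p = 0.159). For both genes the GFP libraries lay below all IL-23 libraries, and the IL-23 groups overlapped. Krt79, a keratin of the follicle opening and sebaceous duct, ran from 312 to 415, 351 to 417 and 260.2 to 379 CPM in the same order. All groups of Krt79 overlapped, and the log2 difference of wild-type IL-23 from GFP was 0.16 (95% interval -0.18 to 0.49, edgeR adjusted p = 0.433). It was -0.25 with library totals alone.

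In the Mdl-1-/- group under IL-23, Krt10 was 2.95-fold higher and Krt14 was 1.61-fold lower than in wild type. They were the 2 of 10 keratins called, beside 17.7% of all tested genes (7.58% higher, 10.1% lower), a share near the background. Libraries of the 2 groups did not overlap for 5 members (36.5% of all tested genes): Krt10, Krt15 and Krt2 were higher and Krt14 and Krt1 lower in every Mdl-1-/- library. The median log2 difference of the 10 was 0.22, beside 0.0016 over all genes. With library totals alone the latter rose by 0.157 and 67.0% rather than 42.9% of all calls were higher in Mdl-1-/-; upper-quartile scaling gave 53.2%.

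The Krt10 rise had a log2 fold change of 1.56 (SE 0.19, edgeR adjusted p = 0.000928) and was called in all 20 alternatives, between 1.47 and 1.72. The Krt14 fall had a log2 fold change of -0.69 (SE 0.18, edgeR adjusted p = 0.0175). Leaving out library 3 of wild type with IL-23 ended that call (adjusted p = 0.0752), as did leaving out library 1 (0.0553) or library 3 (0.0797) of Mdl-1-/-, so that 1 of 10 keratins was called in each of these fits. Over all genes these fits called 1300 of 14324, 1166 of 14339 and 1363 of 14296, fewer than the 2439 of 13807 with all libraries. Without library 1 of wild type with IL-23, 4 keratins were called, beside 2442 of 14355 genes.

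For 4 further members the call depended on the method. Krt15 was 2.94-fold higher in mean (log2 difference 1.56, 95% interval 0.47 to 2.64, edgeR adjusted p = 0.0580). It passed with a minimum count of 30 (adjusted p = 0.0412), with non-robust dispersions (0.00865), with DESeq2 (0.0118) and with limma voom (0.0103). Krt2 had a log2 difference of 2.36 (95% interval 0.15 to 4.56, edgeR adjusted p = 0.131). It passed with non-robust dispersions (adjusted p = 0.0197), DESeq2 (0.0246), limma voom (0.00752) and, at a log2 difference of 3.59, without wild-type IL-23 library 1 (0.0411). Krt77 also had a log2 difference of 2.36 (95% interval -0.05 to 4.77, edgeR adjusted p = 0.159), which was 0.96 without Mdl-1-/- library 3 (adjusted p = 0.416). It passed with non-robust dispersions (adjusted p = 0.0292). Krt1 had a log2 difference of -0.74 (95% interval -1.43 to -0.06, edgeR adjusted p = 0.125). It passed without a count filter (adjusted p = 0.0425), with DESeq2 (0.0334), with limma voom (0.0347), with the replicate number as a block (0.0141) and, at -1.09, without Mdl-1-/- library 2 (0.0117).

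The other 4 members were not called in this comparison. Krt5 had a log2 difference of 0.30 (95% interval -0.23 to 0.83, edgeR adjusted p = 0.423), and 0.67 when library 1 of wild type with IL-23 was left out (adjusted p = 0.0153). Krt79 had -0.33 (95% interval -0.67 to 0.00, edgeR adjusted p = 0.154), Krt78 0.14 (95% interval -0.65 to 0.93, adjusted p = 0.826) and Krt80 -0.00039 (95% interval -0.45 to 0.45, adjusted p = 0.999). For Krt78 and Krt80 the means of the IL-23 groups were 21.7 and 24.0 CPM, and 269 and 269 CPM. The intervals allow differences of up to 0.93 and 0.45 on the log2 scale.

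The authors' deposited table for this pair lists 5 of the 10 keratins below a false discovery rate of 0.05: Krt10, Krt14, Krt15, Krt2 and Krt77. The share of all genes below that rate was not counted, so no background stands beside these members. In the authors' deposited table, with the sign turned to Mdl-1-/- minus wild type, Krt2 has a log2 fold change of 2.38 (false discovery rate 0.00155). Krt77 has 2.42 (0.00109) and Krt15 1.59 (0.000239) in the authors' deposited table. The last 3 genes were not called by the test used here.

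Against GFP, Mdl-1-/- ear with IL-23 had higher Krt1, Krt10, Krt78 and Krt80 and lower Krt15. These were 5 of 10 members called, beside 17.1% of all tested genes (10.2% higher, 6.93% lower), with 4 of 7 suprabasal keratins higher and 1 of 3 basal keratins lower. Groups did not overlap for 6 members (35.8% of all tested genes), and the median log2 difference of the 10 was 0.92 (-0.02 over all genes). With library totals alone the latter fell by 0.245, and 26.1% rather than 59.4% of all calls were higher; upper-quartile scaling gave 43.7%. This comparison shares its libraries with the other 2, so the values are given side by side. Krt1 rose 13.6-fold (log2 fold change 3.77, SE 0.34, edgeR adjusted p = 0.000147), where wild type had a 22.8-fold rise. Krt10 rose 4.91-fold (log2 fold change 2.30, SE 0.20, edgeR adjusted p = 1.21e-05), where wild type had 1.67-fold. Krt15 fell 3.92-fold (log2 fold change -1.97, SE 0.46, edgeR adjusted p = 0.0276), where wild type had 11.5-fold.

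Krt78 rose 2.83-fold (edgeR adjusted p = 0.0187) and Krt80 1.69-fold (adjusted p = 0.0237). Krt14 had a log2 difference of 0.54 (95% interval 0.16 to 0.92, edgeR adjusted p = 0.0505) and passed in 7 of 20 alternatives. Krt2 (1.09, adjusted p = 0.456), Krt77 (2.10, 0.195), Krt79 (-0.17, 0.484) and Krt5 (0.03, 0.940) were not called by edgeR with the settings used here. All Mdl-1-/- libraries of Krt2 lay above the GFP libraries, but barely. The lowest Mdl-1-/- library had 1341.7 CPM and the highest GFP library 1340.2 CPM. Without Mdl-1-/- library 3 the Krt77 log2 difference was 0.70 (edgeR adjusted p = 0.546), and with non-robust dispersions Krt77 was called (adjusted p = 0.0392). With library totals alone Krt79 was called lower (-0.43, edgeR adjusted p = 0.0480). The calls of Krt15, Krt80 and Krt78 were lost in several fits without 1 library, with adjusted p values up to 0.1, 0.0766 and 0.0752. For Krt15 these were GFP libraries 1, 2 and 3 and Mdl-1-/- libraries 2 and 3, for Krt80 GFP libraries 1 and 3 and Mdl-1-/- library 1, and for Krt78 GFP library 3 and Mdl-1-/- libraries 1 and 3. The Krt15 call was also lost without a count filter (adjusted p = 0.0735), the Krt78 call with 2 groups fitted (0.0526), and the Krt80 call with library totals alone (0.0755) and with the replicate number as a block (0.0513). Without GFP library 3, 2 of 10 were called, and 3 without GFP library 1 or Mdl-1-/- library 1. Over all genes these fits called 1340 of 14052, 1610 of 14093 and 2340 of 14339, beside 2359 of 13807 with all libraries. At a false discovery rate under 0.05 the authors' deposited table lists 6 members for IL-23 against GFP in wild type, and 7 for Mdl-1-/- with IL-23 against GFP. The 7 include Krt2 (false discovery rate 0.00619) and Krt77 (0.0198) in the authors' deposited table. The share of all genes below that rate was not counted.

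**Figure D2:**
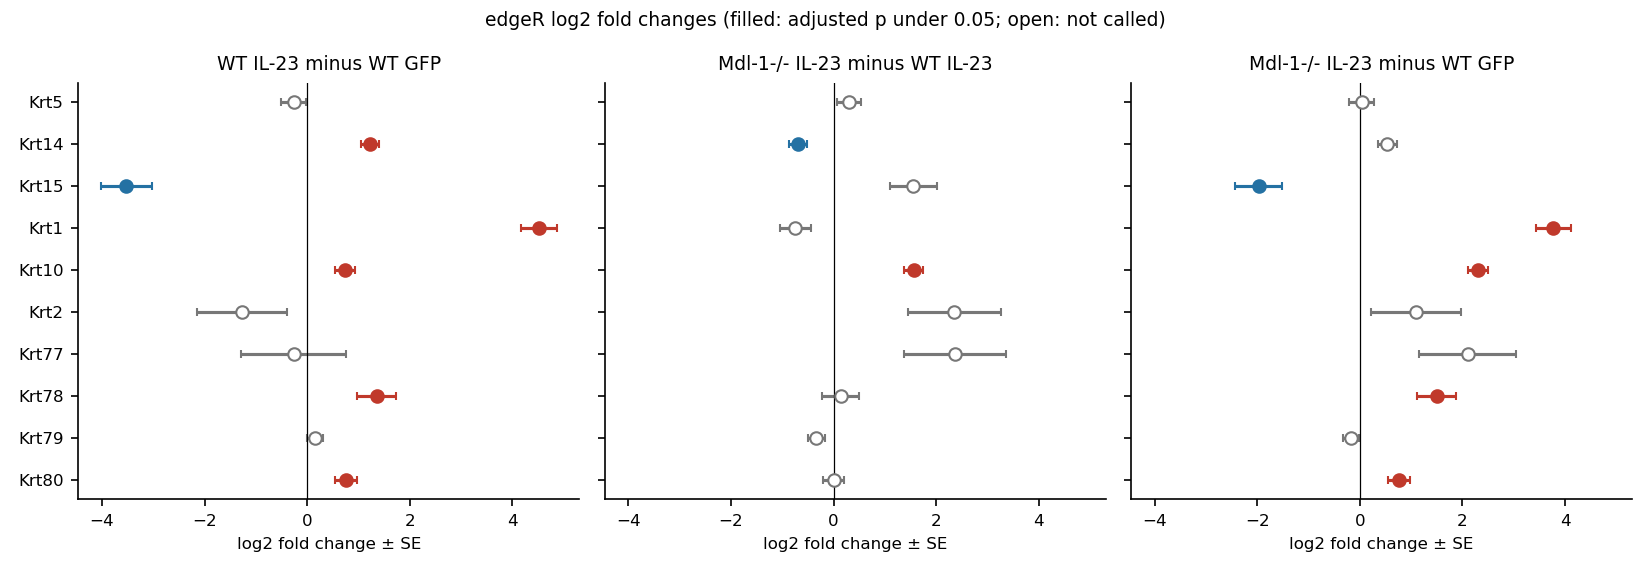
edgeR log2 fold change ± SE of each of the 10 keratins in the 3 comparisons, with filled points for adjusted p under 0.05 and open points for the rest. Krt1 has the largest rise in both comparisons with GFP, Krt15 the largest fall, and Krt10 and Krt14 are the 2 filled points between the genotypes.

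Ratios of keratins within a library need no scaling between libraries and show how the mixture of the 10 shifted. A ratio's own value also depends on how well each transcript end is read, so only its difference between groups is described. The ratio of summed suprabasal to summed basal counts was 0.440, 0.485 and 0.670 with GFP, 0.729, 0.831 and 0.613 in wild type with IL-23, and 2.30, 1.83 and 2.79 in Mdl-1-/-. The wild-type groups overlapped, and every Mdl-1-/- library lay above every wild-type library. The log2 difference was 0.46 between wild-type IL-23 and GFP (exact permutation p = 0.2) and 1.66 between the genotypes under IL-23 (exact p = 0.1). Over the 18 planned ratios and comparisons the adjusted p was 0.225 and 0.129, and with 3 libraries a group none can pass 0.05.

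The same separation is seen in the ratio of Krt10 to Krt14, the type I keratins of the 2 layers. It was 0.598, 0.548 and 1.22 with GFP, 0.560, 0.639 and 0.412 in wild type with IL-23, and 2.73, 1.91 and 3.11 in Mdl-1-/-. Mdl-1-/- exceeded wild type under IL-23 by 2.26 on the log2 scale (exact permutation p = 0.1), and the wild-type groups overlapped. By mean share, Krt10 and Krt14 were the largest members of the suprabasal and basal sums in each group. The ratio of Krt10 to Krt14 is therefore not a second, independent observation.

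Partner keratins moved apart in wild type with IL-23. The ratio of Krt5 to Krt14, the basal pair, was 0.447, 0.278 and 0.534 with GFP, 0.197, 0.145 and 0.0830 in wild type with IL-23, and 0.315, 0.244 and 0.286 in Mdl-1-/-. The wild-type IL-23 libraries were the lowest with no overlap, by 1.60 on the log2 scale below GFP and 1.07 below Mdl-1-/- (exact permutation p = 0.1 each). Mdl-1-/- and GFP overlapped (exact p = 0.3). Krt15 to Krt14, both type I basal keratins, was lower by 4.87 in wild type with IL-23 than with GFP, and Mdl-1-/- lay between them without overlap (exact permutation p = 0.1 for each pair).

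For the suprabasal pair the order was the reverse. The ratio of Krt1 to Krt10 was 0.0240, 0.0311 and 0.0248 with GFP, 0.322, 0.344 and 0.442 in wild type with IL-23, and 0.0428, 0.121 and 0.0665 in Mdl-1-/-. No groups overlapped. Wild-type IL-23 was 3.79 above GFP and Mdl-1-/- 2.39 below wild-type IL-23 on the log2 scale (exact permutation p = 0.1 each). The ratio of Krt1 to Krt5 was 4.91 higher on the log2 scale in wild type with IL-23 than with GFP without overlap (exact p = 0.1). Between the genotypes under IL-23 its log2 difference was -1.19, with overlapping groups (exact p = 0.2). That direction is opposite to the one of Krt10 to Krt14.

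The balance of the type II keratins Krt1 and Krt2 also differed between groups. These ratios were added after the counts had been seen. Krt1 to Krt2 was 0.0613, 0.0678 and 0.0944 with GFP, 1.85, 5.88 and 27.8 in wild type with IL-23, and 0.204, 1.18 and 0.481 in Mdl-1-/-. No groups overlapped, with a log2 difference of 6.52 between the wild-type groups and -3.78 between the genotypes (exact permutation p = 0.1 each, 0.15 adjusted over 12 added values). The sum of Krt1, Krt2 and Krt77 to Krt10 differed much less between the wild-type groups, at 0.294 to 0.499 with GFP and 0.407 to 0.499 in wild type with IL-23 (log2 difference 0.20, overlapping, exact permutation p = 0.6). In Mdl-1-/- that ratio was 0.217 to 0.255, below all wild-type libraries.

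**Figure D3:**
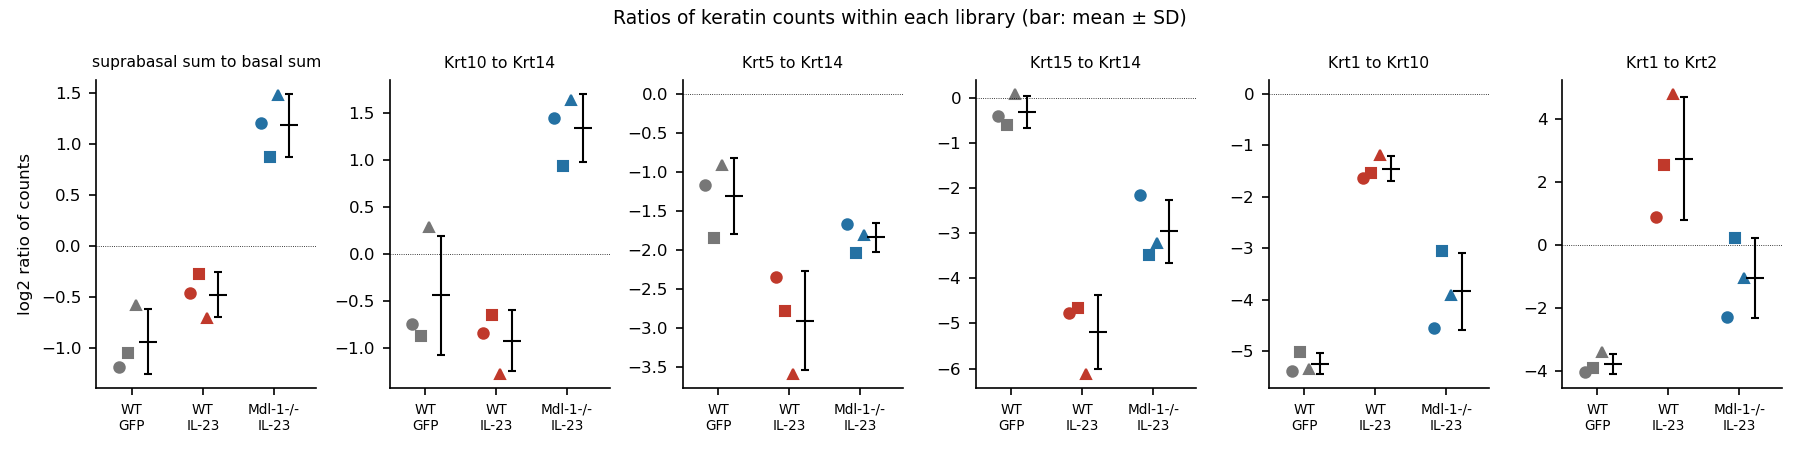
log2 ratios of keratin counts within each of the 9 libraries by group, with the mean ± SD of 3 libraries as a bar. The ratios of suprabasal to basal sums and of Krt10 to Krt14 set the Mdl-1-/- libraries apart, whereas Krt5 to Krt14 and Krt15 to Krt14 are lowest, and Krt1 to Krt10 and Krt1 to Krt2 highest, in wild type with IL-23.

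As shares of the counts of the 10 keratins, Krt14 went from 29.8% ± 6.03 with GFP to 49.8% ± 5.80 in wild type with IL-23 and was 21.7% ± 4.19 in Mdl-1-/- (SD, n = 3). Krt10 took 22.1% ± 5.37, 26.3% ± 3.09 and 54.5% ± 4.08 in the same order (SD, n = 3). Krt15 took 23.7% ± 0.752 with GFP, 1.45% ± 0.557 in wild type with IL-23 and 2.92% ± 1.28 in Mdl-1-/- (SD, n = 3).

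**Figure D4:**
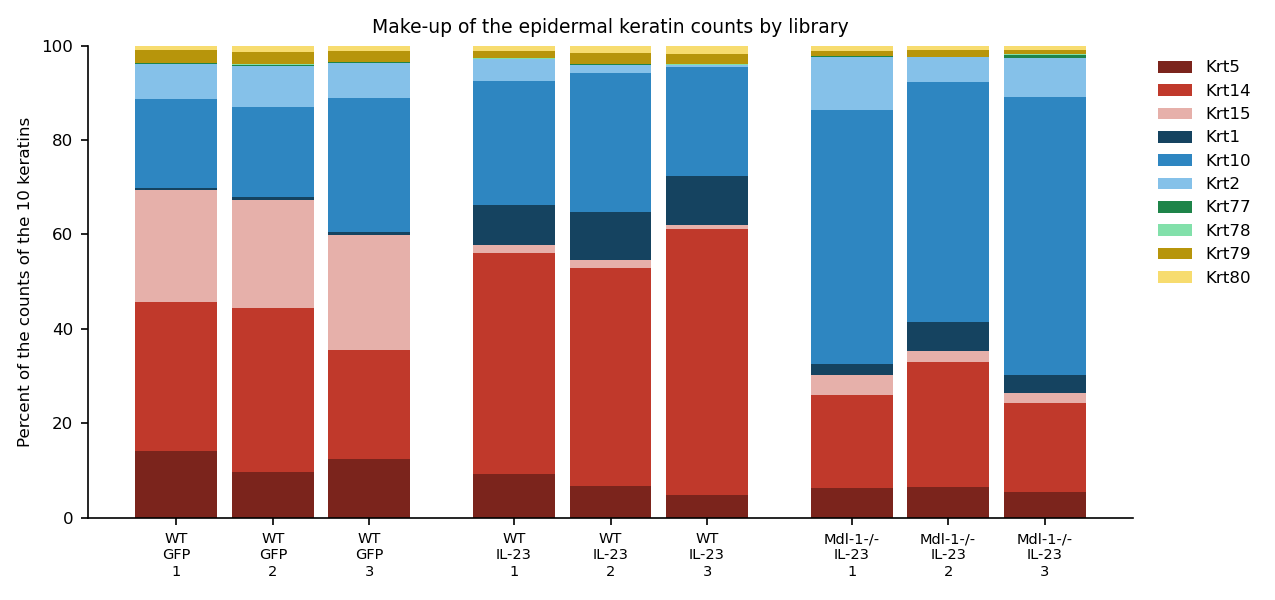
Percent of the summed counts of the 10 keratins taken by each keratin, 1 stacked bar for each of the 9 libraries. The pale red band of Krt15, 22.9% to 24.4% with GFP, is at most 4.39% in the other libraries, and the blue band of Krt10 is at least 50.8% in the Mdl-1-/- libraries and at most 29.5% elsewhere.

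Wound keratins were read beside the 10. Krt6a, Krt6b, Krt16 and Krt17 together took 0.0270% ± 0.00820 of counts with GFP, 1.36% ± 0.367 in wild type with IL-23 and 0.291% ± 0.163 in Mdl-1-/- (SD, n = 3). All 4 rose with IL-23 in wild type, where 22.9% of all tested genes rose; Krt6b rose 361-fold, Krt16 142-fold, Krt6a 31.0-fold and Krt17 12.8-fold (edgeR adjusted p = 0.000119, 4.89e-05, 0.00142 and 6.30e-08). All 4 were lower in Mdl-1-/- than in wild type under IL-23, as 10.1% of tested genes were. Krt6b was 5.83-fold lower, Krt6a 5.11-fold, Krt16 3.90-fold and Krt17 3.22-fold (edgeR adjusted p = 0.0213, 0.0427, 0.0206 and 0.000671). The Krt6a call was lost in 10 of 20 alternatives and those of Krt6b and Krt16 in 4 each. Without library 3 of wild type with IL-23, 1 of the 4 was called, and 2 were without library 2 of that group or library 1 or 3 of Mdl-1-/-. Those fits called 1128 to 1363 of all tested genes, beside 2439 with all libraries. Against GFP all 4 were higher in Mdl-1-/-, from 3.99-fold (Krt17) to 61.9-fold (Krt6b), and the Krt6a call was lost in 9 of 20 alternatives. Krt6a and Krt6b are close copies of each other. Sequence shared between their transcript ends was not measured, so their separate levels remain uncertain.

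Counting the wound keratins also changed the ratio of type I to type II keratin counts. This ratio, too, was added after the counts had been seen. Type I to type II counts of the 10 keratins stood at 2.88 to 3.30 with GFP, 2.97 to 4.14 in wild type with IL-23 and 3.52 to 3.95 in Mdl-1-/-. With the 4 wound keratins added, the ratio was 2.72 to 3.10, 0.764 to 1.16 and 2.23 to 3.24 in the same order. Wild type with IL-23 thus lay below both other groups (log2 differences of 1.63 and 1.52, exact permutation p = 0.1 each, 0.15 adjusted over 12 added values).

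Keratins of other epithelia were mostly too low to test. Of 12 keratins of simple, mucosal, corneal and palmoplantar epithelium 2 were tested. Krt23, a type I keratin, rose 2.45-fold with IL-23 in wild type (edgeR adjusted p = 0.0477; lost in 11 of 20 alternatives) and 0 were called in the other comparisons. Krt24, a type I keratin of differentiated cells, ran from 137 to 307 CPM with GFP, 5.62 to 96.7 CPM in wild type with IL-23 and 145 to 435 CPM in Mdl-1-/-, and was not called. Of 9 keratins of the inner root sheath and companion layer of the hair follicle 3 were tested. Krt75, of the companion layer, rose 3.12-fold with IL-23 in wild type and was 2.21-fold lower in Mdl-1-/- (edgeR adjusted p = 6.81e-05 and 0.00537). Krt25 and Krt28, of the inner root sheath, were not called.

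Genes that anchor or bundle keratin filaments rose in 14 of 24 tested and fell in 5 with IL-23 in wild type (22.9% of all tested genes rose and 21.7% fell). With library totals alone 9 rose and 8 fell, with upper-quartile scaling 13 and 8, and without library 3 of wild type with IL-23 10 and 4. The median log2 fold change of the 24 was 0.74. Evpl (envoplakin) rose 3.34-fold, Hrnr (hornerin, a filament-associated protein) 3.07-fold, Dsp (desmoplakin, which ties filaments to desmosomes) 2.55-fold and Jup (plakoglobin) 1.91-fold, with edgeR adjusted p of 4.34e-06, 5.42e-05, 2.86e-05 and 7.47e-05. Between the genotypes 5 were higher and 4 lower in Mdl-1-/- (7.58% and 10.1% of all tested genes; 6 and 1 anchors with library totals alone), and against GFP 10 were higher and 1 lower (10.2% and 6.93%). Col17a1, a hemidesmosome collagen of basal cells, fell 4.87-fold in wild type with IL-23 and was 3.24-fold higher in Mdl-1-/- (edgeR adjusted p = 0.000101 and 0.00365). Dsc3, a basal desmosomal cadherin, fell 1.31-fold and was 1.62-fold higher (adjusted p = 0.0289 and 0.00414), and the first of these calls was lost in 5 of 20 alternatives. Between the genotypes, 4 anchors were called without library 2 or 3 of wild type with IL-23 or library 1 of Mdl-1-/-, and 5 without library 3 of Mdl-1-/-. Those fits called 1128 to 1363 of all tested genes, beside 2439 with all libraries.

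Of 36 tested transcription factors and Notch pathway genes of epidermal identity and stratification, 16 rose and 9 fell with IL-23 in wild type, 8 were higher and 4 lower in Mdl-1-/- than in wild type, and 19 were higher and 2 lower in Mdl-1-/- than with GFP. Of all tested genes, 22.9% and 21.7%, 7.58% and 10.1%, and 10.2% and 6.93% were called higher and lower in the same comparisons. With library totals alone the 3 splits of the factors were 13 and 11, 14 and 4, and 13 and 4. Grhl3, needed for barrier formation, rose 6.86-fold, Ppard, a nuclear receptor, 4.39-fold and Zfp750, a factor of terminal differentiation, 3.07-fold (edgeR adjusted p = 3.53e-06, 1.53e-06 and 3.39e-06). Ppard was 2.16-fold lower and Maf 2.14-fold higher in Mdl-1-/- than in wild type (edgeR adjusted p = 0.00223 and 0.00242). Maf, a transcription factor of epidermal differentiation, had fallen 2.43-fold in wild type with IL-23 (adjusted p = 9.28e-05). Without library 2 of wild type with IL-23, 7 of the factors were called between the genotypes, beside 1128 of 14273 tested genes.

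Marker lists of the epidermal layers share genes with the lists above: 4 basal, 3 spinous, 2 granular and 3 general keratinocyte markers are also anchors (Col17a1, Dsc1, Flg and Dsp among them), 1 spinous and 3 general markers are also in the transcription factor and Notch list, and the bulge list holds Krt75. The counts below stand beside 22.9% of all tested genes called higher and 21.7% lower in wild type, and 7.58% higher and 10.1% lower between the genotypes. Of 10 spinous layer markers 5 rose and 2 fell with IL-23 in wild type, and 5 were higher and 0 lower in Mdl-1-/- than in wild type; their sums were 1612 to 2767, 5892 to 7346 and 6793 to 8214 CPM. Of 12 granular and cornified layer markers 10 rose and 1 fell, and 0 were higher and 4 lower in Mdl-1-/-, with sums of 981 to 2758, 7560.3 to 11634 and 4918 to 6397 CPM. Of 12 markers of all keratinocytes 9 rose and 0 fell, and 1 was higher and 3 lower in Mdl-1-/-, with sums of 4854 to 6390.1, 9551 to 13789 and 9122 to 10034 CPM. A sum follows the most abundant genes of its list more than the others. Median log2 fold changes in wild type were 0.40 for the spinous, 2.24 for the granular and cornified, and 0.83 for the all-keratinocyte list. The basal list, with 2 higher and 0 lower in Mdl-1-/-, had a sum of 1454 to 1951 CPM there. Of 9 bulge markers 3 were higher and 1 lower in Mdl-1-/- than in wild type (sum 783 to 1066 CPM). Of 8 markers of the upper follicle 4 rose and 2 fell in wild type, and 1 was lower in Mdl-1-/-. None of the defining markers of these 6 lists was at 0 in a group. Of the neutrophil markers, 7 of 7 tested rose in wild type and 3 were lower in Mdl-1-/-, with sums of 237 to 363, 34938 to 74288 and 6673 to 25965 CPM. Their median log2 fold change was 3.36 in wild type and 1.13 in Mdl-1-/- against GFP, where 3 were called higher. Sebaceous gland markers fell in 9 of 9 tested in wild type, with sums of 4563 to 5577, 1426 to 2446 and 2025 to 2709 CPM. The part of these cell types in the keratin differences was not tested.

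The genes most like each of 4 members were listed by Pearson r of log2 CPM over the 9 libraries among 8196 genes. The 9 points share 3 groups, so these r values mainly describe group patterns. Krt14 was most like Cd81 (r = 0.992), Prep (0.991) and Slc35e1 (0.989). Krt15 was most like 5930430L01Rik (r = 0.998), Abca5 (0.993) and Abcc5 (0.992). Krt1 was most like Lce3e (r = 0.994), Sh3kbp1 (0.994) and Teddm3 (0.993), and Krt10 like Pon2 (0.974), Homer2 (0.971) and Trp53inp2 (0.965).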

How the data were processed

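Ear RNA of 9 mouse libraries in 3 groups was read by 3' tag RNA-Seq. The authors' deposited tables hold raw counts per Ensembl gene. STAR 2.7.0a, featureCounts and edgeR are the tools named in the submitters' processing notes. The build named there, GRCh38.p6, is a human name while identifiers are those of mouse, so the build is uncertain. The authors' deposited comparison tables hold log2 fold changes and false discovery rates (adjusted p-values). Genes kept by filterByExpr (minimum count 10; 13807 genes) were fitted with edgeR 4.0.16 (R 4.3.3): TMM scaling, 1 model of 3 group means, quasi-likelihood F-test, robust dispersions, Benjamini-Hochberg adjustment. The fit was tested on simulated data. Ratios (0.5 count added) and shares were compared by exact two-sided permutation. Alternatives were DESeq2 1.42.0, limma 3.58.1 voom, other scalings and filters, 2 groups alone, the replicate number as a block, and each library left out. From each further list the 4 genes with the smallest adjusted p in the first comparison and the 2 in the second were named; 1 of these is not reported here. From the markers, only counts, sums and some median log2 fold changes are given. Members and lists were chosen with earlier results of these data known. Members had 18 to 73408 counts in a library.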

Additional observations from a re-analysis of the deposited data

How the results depend on the processing

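Beside the values given with the results, the keratins called with IL-23 in wild type (6) numbered 3 with library totals alone and 5 to 7 with 1 library left out. Between the genotypes (2) they numbered 5 with non-robust dispersions, DESeq2 or limma voom and 1 to 4 with 1 library left out, and for Mdl-1-/- against GFP (5) 2 to 5. All-gene calls moved too, from 6169, 2439 and 2359 of 13807 with all libraries in the 3 comparisons. In wild type they were 7163 with library totals alone and 4622 to 6352 with 1 library left out. Between the genotypes they were 2424, 2351 and 2181 with the methods named, in that order, and 1128 to 2802 with 1 library left out. For Mdl-1-/- against GFP they were 1340 to 2580 with 1 library left out. Some differences near 0 changed sign. Krt79 in wild type was -0.25 with library totals, and Krt77 ran from -0.84 to 0.00602 with 1 library left out. Krt80 between the genotypes was 0.0593 with upper-quartile scaling, 0.18 with library totals, 0.0104 without a filter, 0.0187 at a minimum count of 30, 0.041 with 2 groups fitted, and -0.24 to 0.14 with 1 library left out. Krt5 in Mdl-1-/- against GFP was -0.0637 with upper-quartile scaling, -0.21 with library totals, -0.00412 at a minimum count of 30, and -0.0683 to 0.16 with 1 library left out.

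Wound keratins called between the genotypes (4) numbered 2 without a filter or with 2 groups fitted and 1 to 4 with 1 library left out. Keratins of other epithelia called in wild type (1) numbered 0 with upper-quartile scaling, library totals, no filter or 2 groups, 2 with non-robust dispersions, DESeq2 or limma voom, and 0 to 2 with 1 library left out. In both other comparisons (0) they numbered 1 with those last 3 methods, and between the genotypes 0 to 1 with 1 library left out. Anchors (9) numbered 4 to 8 and transcription factors (12) 7 to 16 between the genotypes with 1 library left out. A ratio or share difference between groups that do not overlap cannot change sign when 1 library is left out. For those differences the sign was therefore no check. With 1 library left out, 3 differences between overlapping groups changed sign. The keratin share between the wild-type groups ran from -0.029 to 0.206 percentage points. The ratio of Krt1, Krt2 and Krt77 to Krt10 between them ran from -0.00891 to 0.37. Type I to type II with wound keratins in Mdl-1-/- against GFP ran from -0.24 to 0.0315.

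Deviations from the group mean correlated at -0.09 to 0.23 between same-numbered libraries of different groups and at -0.21 to 0.17 between the others. The highest values, 0.23 and 0.18, were both from same-numbered libraries. The labels do not state a pairing, so the numbers served as a block only in an alternative fit. With the replicate number as a block, 6, 3 and 5 keratins were called in the 3 comparisons (Krt1 was added between the genotypes, and in Mdl-1-/- against GFP Krt14 was added and Krt80 lost), 0 keratins of other epithelia in wild type, and Krt80 between the genotypes was 0.0128. With 18 to 126 counts, Krt78 is the member most limited by depth.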
